A study of Mus musculus with 9 samples.

Results

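Homeobox, forkhead, SOX and T-box genes encode transcription factors that set where along the reproductive tract a tissue lies and which cell type it forms. They are described here in mouse uterine luminal epithelium, the layer that an embryo first attaches to. The members were the gene symbols of 14 families (Hox, Meis, Pbx, Dlx, Emx, Msx, Pax, sine oculis homeobox, Irx, Lhx, Fox, Sox, Gata and Tbx) in the authors' deposited table. The rule was the symbol alone and used no measured value. It matched 87 of 15158 symbols, and 6 of these (Hoxa10, Hoxa11, Gata2, Sox17, Msx1 and Foxa2) were set apart by name, which left 81 members.

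All 9 libraries came from laser-captured luminal epithelium of female mice that were kept to an age of 8 weeks, mated and dissected on pregnancy day 4. The 3 groups of 3 libraries were Wnt7acre, which carried the cre alone and served as the control, ePRAoe (Wnt7acre/+PgrALsL/+) and ePRBoe (Wnt7acre/+PgrBLsL/+), in which progesterone receptor isoform A or B was overexpressed in the epithelium. All groups carried the cre, which is driven by Wnt7a, a gene of the uterine epithelium. The labels number the bioreplicates without naming animals or pools. The p-values can thus speak only for the spread among these samples, each of which may be a single animal or a pool. The question is how each receptor isoform alters these factors.

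Hox genes lie in 4 clusters and are expressed along the axis of the body and of the Müllerian duct in the order of their position. MEIS and PBX proteins bind DNA together with HOX proteins. Forkhead factors of the FOXO group act downstream of insulin signalling and are held in the cytoplasm when phosphorylated by AKT, and FOXO1 is a known partner of the progesterone receptor in the uterus. Pax2, Pax8, Emx2 and Dlx5 mark the epithelium of Müllerian origin.

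Values are FPKM, which scale a gene's fragments by its length and by the depth of the library, and differences are on the log2(FPKM + 1) scale, which understates the change of low genes. A gene is called where the adjusted p of the limma test across all 12347 tested genes is under 0.05, and rose or fell is used of called genes only. The libraries summed to 272213 to 314010 FPKM, and 11074 to 12300 genes reached 1 FPKM. Pgr, the targeted gene, stood at 17.4, 3.82 and 6.62 FPKM in Wnt7acre, 41.7, 49.5 and 42.8 in ePRAoe and 38.1, 38.3 and 45.9 in ePRBoe. The sum of 18 luminal epithelium markers lay between 2568 and 2847 FPKM for Wnt7acre, between 1949 and 2709 for ePRAoe and between 2383 and 2653 for ePRBoe. Of these 18, 2 rose and 4 fell in ePRAoe and 1 rose and 1 fell in ePRBoe. With Wnt7acre replicate 2 or 3 or ePRAoe replicate 2 or 3 left out, 0 rose and 1 fell in ePRAoe. Spint1, one of them, fell in both, from 237 ± 87.5 FPKM to 91.5 ± 9.04 and 99.2 ± 12.3 (SD, n = 3). In ePRBoe that call of Spint1 did not hold with Wnt7acre replicate 3, ePRAoe replicate 2, ePRBoe replicate 2 or ePRBoe replicate 3 left out. For 18 stroma markers it lay between 126.1 and 159.1, between 294.9 and 511.9 and between 544.2 and 717 FPKM, none of the 18 was at 0 in any library, and 12 of 18 rose in ePRAoe and 15 of 18 in ePRBoe. All 3 ePRBoe libraries were made in 1 sequencing run, NOVA0134, with Wnt7acre replicate 3 and ePRAoe replicate 2, and each of the other 2 runs held 1 Wnt7acre and 1 ePRAoe library. Within a run, ePRBoe can thus be compared only with those 2 libraries. In bulk samples such as these, fewer cells of a type and less RNA per cell cannot be told apart.

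The start regions of genes on which the results turn are shown first, because they place the Hoxd genes and Foxo1 in the genome and show the kind of sequence in which their transcription begins. Each window runs from 250 bases before to 50 bases after a RefSeq start site (GRCm38.p6, the build named mm10 in the submitters' notes). Capitals mark the homeobox core TAATTA, which reads the same on both strands. Hoxd11 has windows at chr2:74679308-74679607 and chr2:74682073-74682372, Hoxd9 at chr2:74697513-74697812 and Foxo1 at chr3:52268087-52268386, all on the plus strand.
Hoxd11, first start: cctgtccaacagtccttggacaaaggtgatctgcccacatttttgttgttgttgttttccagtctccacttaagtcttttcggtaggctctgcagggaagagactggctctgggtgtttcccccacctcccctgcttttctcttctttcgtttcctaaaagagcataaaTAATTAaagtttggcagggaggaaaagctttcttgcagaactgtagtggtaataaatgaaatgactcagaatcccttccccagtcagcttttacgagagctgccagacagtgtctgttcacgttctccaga
Hoxd11, second start: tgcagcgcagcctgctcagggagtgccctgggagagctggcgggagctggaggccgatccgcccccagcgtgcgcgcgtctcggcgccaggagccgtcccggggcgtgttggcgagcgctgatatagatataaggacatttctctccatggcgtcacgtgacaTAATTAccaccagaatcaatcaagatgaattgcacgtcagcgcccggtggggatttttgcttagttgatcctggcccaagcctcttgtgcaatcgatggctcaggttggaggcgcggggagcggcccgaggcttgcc
Hoxd9: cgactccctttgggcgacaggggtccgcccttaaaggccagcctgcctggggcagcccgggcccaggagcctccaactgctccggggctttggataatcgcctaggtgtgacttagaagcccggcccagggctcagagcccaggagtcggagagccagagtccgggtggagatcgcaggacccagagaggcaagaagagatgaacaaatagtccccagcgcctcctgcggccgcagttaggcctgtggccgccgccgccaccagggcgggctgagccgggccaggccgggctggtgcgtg
Foxo1: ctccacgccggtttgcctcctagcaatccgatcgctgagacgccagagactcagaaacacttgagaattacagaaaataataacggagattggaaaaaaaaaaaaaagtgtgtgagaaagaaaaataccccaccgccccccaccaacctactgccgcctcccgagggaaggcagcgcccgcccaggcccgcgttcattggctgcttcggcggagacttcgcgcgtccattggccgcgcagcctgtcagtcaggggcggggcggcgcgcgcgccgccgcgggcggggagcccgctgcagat

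The core begins 81 bases before the first Hoxd11 start and 87 bases before the second, and the Hoxd9 and Foxo1 windows do not hold it. Of the called members described below, Foxp1 also has it in 1 of its 3 windows, 240 bases before the start. TAATTA was in 7 of 66 windows of 52 member genes (10.6%) against 5.29% of all 32851 windows. The hexamer AGAACA, which reads as TGTTCT on the other strand and to which steroid receptors of the progesterone receptor's kind bind, was in 6 of the 66 windows (9.09%) against 19.0% of all. It was in no window of a called member. The spaced pair ACANNNTGT, which can overlap that hexamer, was in 4.55% of member windows against 6.85% of all, and the forkhead core TGTTTAC, which reads as GTAAACA on the other strand, in 1.52% against 3.65%. Member windows were richer in G and C (median 60.1% against 52.7%) and held a median of 16.5 CpG against 7. The start regions used here held no window for Tbx3, a called member, so these statements do not cover it.

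The members as a whole made up a small and even share of each library. Their FPKM summed to 0.318% to 0.382% of a library, with group means of 1003 ± 37.6 FPKM (SD, n = 3) in Wnt7acre, 1036 ± 10.5 in ePRAoe and 1017 ± 65.8 in ePRBoe. Over the 9 libraries 26 members had a mean of at least 10 FPKM, of which 2, Dlx5 and Pax8, were above 100, and 31 had a mean under 1 FPKM. The filter on low values (at least 1 FPKM in at least 3 libraries) passed 53 members. The other 28 were not tested and reached at most 2.02 FPKM.

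**Figure D1:**
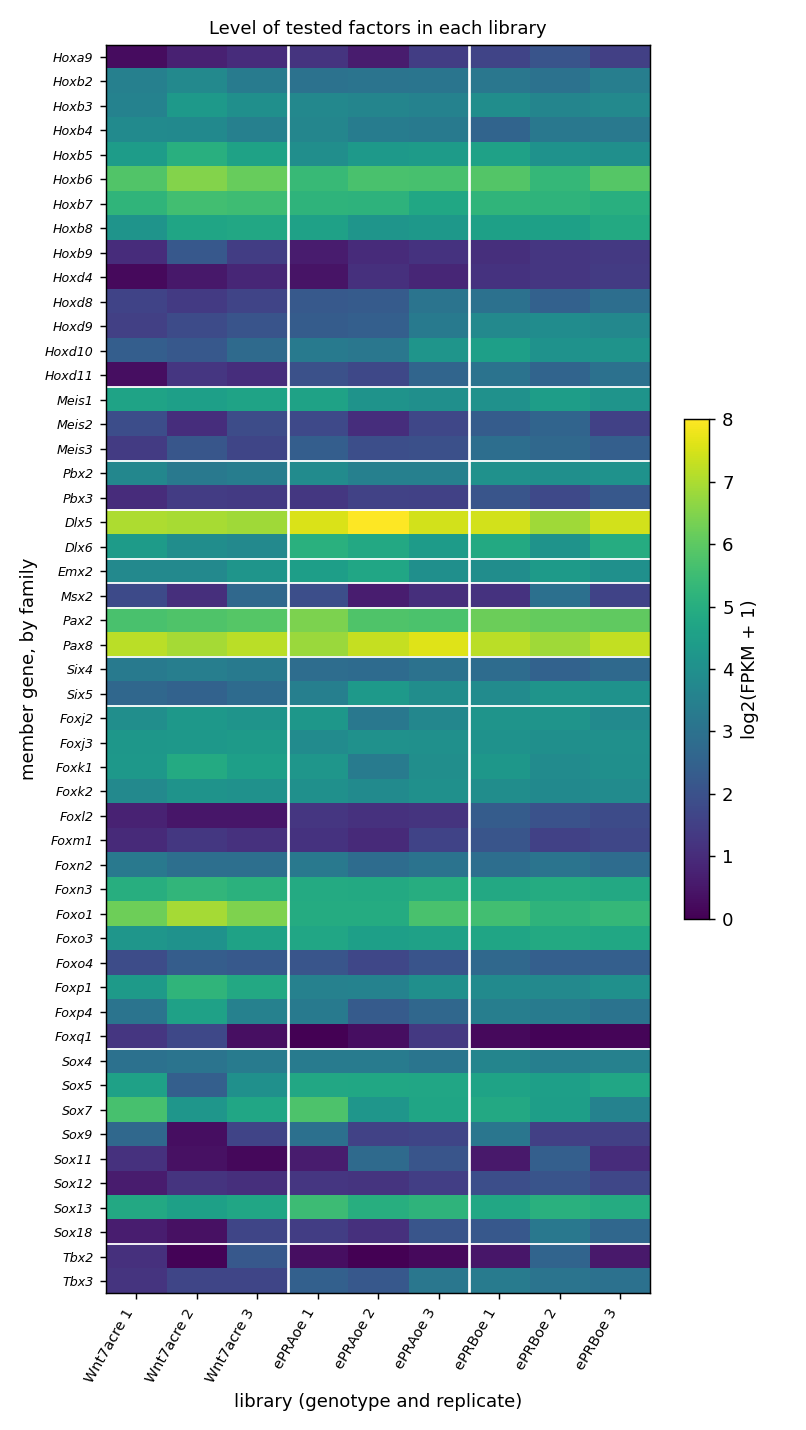
Level of 51 tested factors (rows, by family) in the 9 libraries (columns, by genotype and replicate), as log2(FPKM + 1) on a colour scale from 0 to 8. Dlx5 and Pax8 are the brightest rows, Foxo1 is brighter in the 3 Wnt7acre libraries, and Hoxd8 to Hoxd11 are darker there than in the other 6.

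Of the 53 tested members, 9 were called between ePRAoe and Wnt7acre, 7 of them higher (Hoxd8, Hoxd9, Hoxd10, Hoxd11, Six5, Tbx3 and Sox13) and 2 lower (Foxo1 and Foxp1). This is 17% of the tested members, close to the 16.2% of all tested genes called in that comparison (7.2% higher and 8.98% lower). Between ePRBoe and Wnt7acre 10 were called, 8 higher (Hoxd8, Hoxd9, Hoxd10, Hoxd11, Six5, Tbx3, Foxl2 and Pbx2) and 2 lower (Foxo1 and Foxp1). That is 18.9%, against 8.89% of all tested genes (6.41% higher and 2.48% lower). The same 8 members were called in both comparisons, each in the same direction, and both comparisons use the same 3 Wnt7acre libraries. Each of the 9 had the same direction within all 3 runs in ePRAoe, with 1 library a side, and each of the 10 had it within NOVA0134 in ePRBoe. This is no separate check of the calls, since the fitted ePRAoe difference is the mean of those within runs. The ePRBoe difference likewise rests on NOVA0134, the only run with ePRBoe libraries. The median log2 difference of the tested members was 0.11 in ePRAoe and 0.26 in ePRBoe, beside -0.03 and 0.10 over all tested genes. Leaving out 1 library at a time gave between 3 and 12 called members for ePRAoe: 3 (1 higher and 2 lower) when Wnt7acre replicate 2 or ePRAoe replicate 3 was left out, 12 (6 higher and 6 lower) when Wnt7acre replicate 1 or ePRAoe replicate 1 was, and 5 when ePRBoe replicate 1 or 3 was. For ePRBoe the count was 3 with Wnt7acre replicate 3 left out, 5 with ePRAoe replicate 2, 6 with ePRBoe replicate 1 and 4 with ePRBoe replicate 2 or 3, and 10 in the other fits. For the ePRAoe difference these fits are not 9 separate checks. Leaving out the Wnt7acre or the ePRAoe library of a run takes that run out of the difference. Leaving out an ePRBoe library leaves its estimate unchanged and alters only the spread. With no term for the run, the ePRBoe count was 16, and among members with a mean of at least 5 FPKM it was 6.

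**Figure D2:**
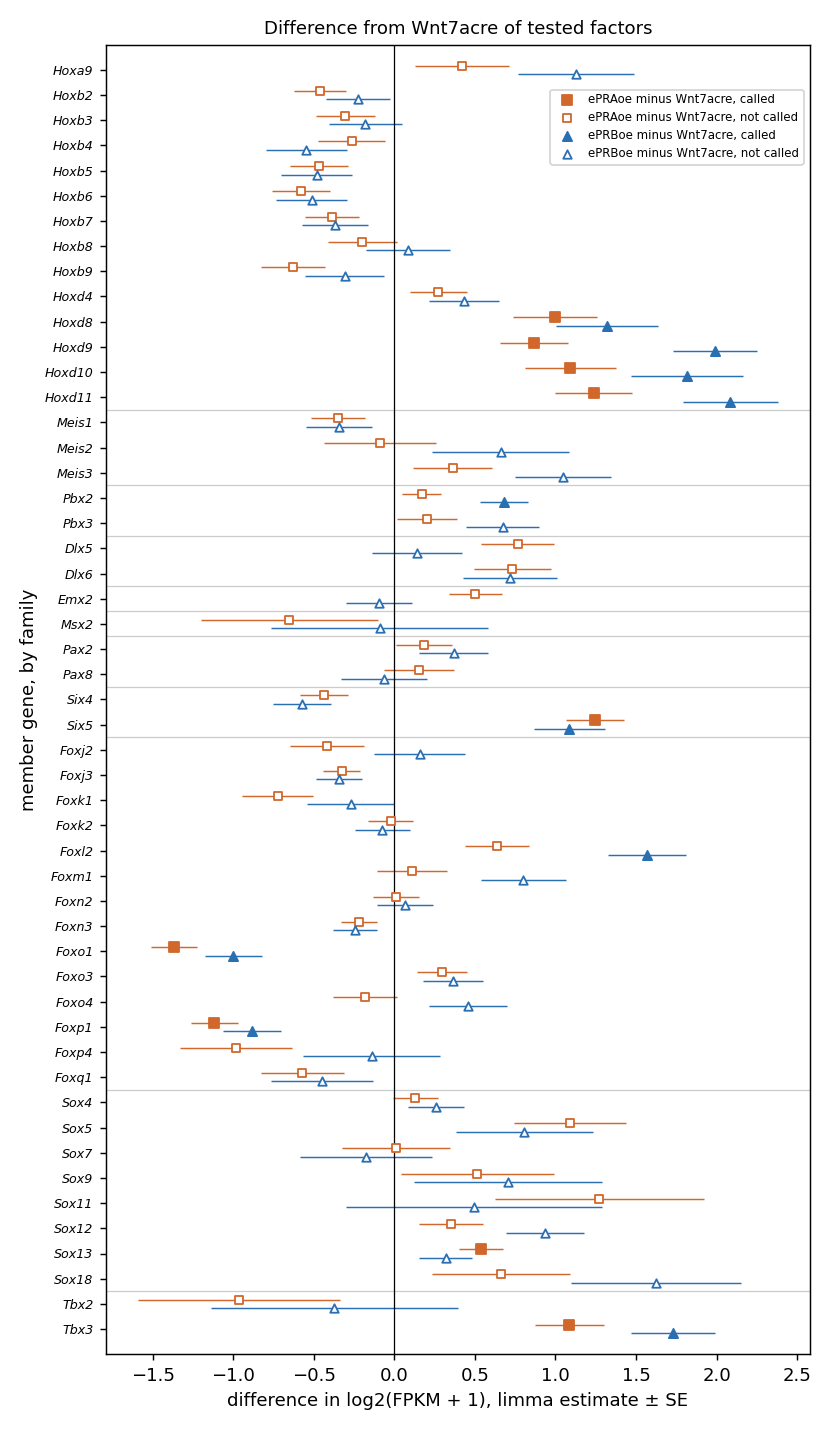
Difference from Wnt7acre of 51 tested factors (rows, by family) in log2(FPKM + 1), as the limma estimate with its SE, for ePRAoe (squares) and ePRBoe (triangles). Filled symbols are called at an adjusted p under 0.05: Hoxd8 to Hoxd11, Six5 and Tbx3 lie to the right in both genotypes, and Foxo1 and Foxp1 to the left in both.

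The neighbouring genes Hoxd8 to Hoxd11 rose in both overexpressing genotypes, and no other Hox gene among the members was called in any comparison. This does not cover Hoxa10 and Hoxa11, which were set apart. They lie side by side on chromosome 2, all on the plus strand (mm10, GENCODE M21): Hoxd11 at chr2:74679557-74687016, Hoxd10 at chr2:74691924-74695105, Hoxd9 at chr2:74697727-74700208 and Hoxd8 at chr2:74704615-74707933. Genes nearer the 5′ end of a Hox cluster are expressed nearer the posterior end of the body axis and of the reproductive tract.
Hoxd9 measured 1.85, 2.57 and 3.19 FPKM in Wnt7acre replicates 1, 2 and 3, 3.98, 4.34 and 8.69 in ePRAoe and 12.6, 13.97 and 12.2 in ePRBoe. All 3 groups were apart, with every ePRBoe library above every ePRAoe library and these above Wnt7acre. Its log2 difference from Wnt7acre was 0.87 ± 0.21 (SE, adjusted p = 0.0328) in ePRAoe and 1.99 ± 0.26 (SE, adjusted p = 0.00785) in ePRBoe. Hoxd11 was the lowest of the 4 in Wnt7acre, at 0.235, 1.41 and 1.08 FPKM in Wnt7acre replicates 1, 2 and 3, 2.998, 2.33 and 5.11 in ePRAoe and 7.25, 4.91 and 6.89 in ePRBoe. Its Wnt7acre libraries lay below all others, and its ePRAoe and ePRBoe libraries overlapped. The difference was 1.24 ± 0.24 (SE, adjusted p = 0.0144) in ePRAoe and 2.09 ± 0.29 (SE, adjusted p = 0.00922) in ePRBoe. Hoxd10 measured 4.27, 3.62 and 5.79 FPKM in Wnt7acre, 8.797, 8.05 and 17.1 in ePRAoe and 22.02, 15.9 and 16.3 in ePRBoe, again with Wnt7acre below every other library and ePRAoe replicate 3 within the ePRBoe range. It differed by 1.09 ± 0.28 (SE, adjusted p = 0.0393) and 1.82 ± 0.35 (SE, adjusted p = 0.0214). Hoxd8 measured 2.08, 1.55 and 2.15 FPKM in Wnt7acre, 3.73, 3.91 and 7.46 in ePRAoe and 6.97, 4.65 and 6.44 in ePRBoe, and ePRAoe replicate 3 was the highest of all 9. The difference was 0.998 ± 0.26 (SE, adjusted p = 0.0395) and 1.32 ± 0.32 (SE, adjusted p = 0.0447).
Within each run, from which the fitted difference is averaged, ePRAoe was above Wnt7acre for all 4 genes. The log2 difference of Hoxd9, for instance, was 0.35 in run NOVA0134, 1.44 in NS50967 and 0.81 in NS50999, with 1 library a side. In the fits that left out 1 library, the ePRBoe calls of Hoxd9 and Hoxd11 were kept in 9 of 9. Those of Hoxd8 and Hoxd10 were kept in 4 of 9 and lost without Wnt7acre replicate 3, ePRAoe replicate 2 or any 1 ePRBoe library (adjusted p up to 0.148 and 0.0774). Hoxd11 in ePRAoe lost its call when Wnt7acre replicate 2 or ePRAoe replicate 3 was left out (up to 0.0771). The ePRAoe calls of the other 3 were kept in 2 of 9 fits each: Hoxd8 without Wnt7acre replicate 1 or ePRAoe replicate 1, Hoxd9 and Hoxd10 without Wnt7acre replicate 3 or ePRAoe replicate 2. The fits that lost them gave adjusted p up to 0.157, 0.13 and 0.139. Hoxd8 was also not called in ePRAoe with no filter on low values (0.0521), or in ePRBoe with that setting, median-of-ratios scaling, quantile normalization or TPM (0.0566 to 0.076), and Hoxd9 not in ePRAoe with no run term (0.0622) or a replicate block (0.0591). Direction was kept by all 4 in each of these fits and under each scaling. Exons of Hoxd10 and Hoxd11 overlap the annotated gene Gm28309 on the same strand, so reads of these genes may be shared with it.

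The Hoxd genes and the stroma markers both had their lowest sums in Wnt7acre and their highest in ePRBoe. Hoxd8 to Hoxd11 summed to 8.43, 9.14 and 12.2 FPKM in Wnt7acre, 19.5, 18.6 and 38.4 in ePRAoe and 48.9, 39.5 and 41.9 in ePRBoe. The 18 stroma markers summed to 126.1, 149 and 159.1, to 294.9, 316.3 and 511.9, and to 544.2, 631.7 and 717 FPKM in the same libraries. Set against that sum, the 4 genes came to 6.69%, 6.14% and 7.67% in Wnt7acre, 6.62%, 5.89% and 7.49% in ePRAoe and 8.98%, 6.25% and 5.84% in ePRBoe, so that the groups overlapped. ePRAoe replicate 3, the highest of its group for the Hoxd genes, was also the highest of its group for the stroma markers. Among the 3 ePRBoe libraries the order was not shared. Hoxd11 alone came to 0.186% to 1.33% of it over the 9 libraries. The part of stromal RNA in the Hoxd difference was not tested.

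**Figure D3:**
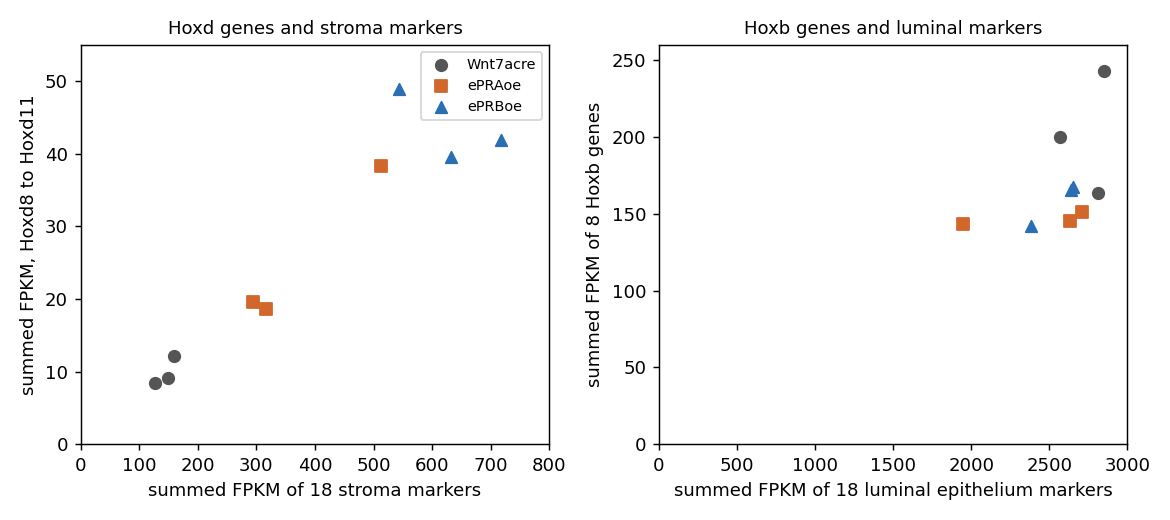
Left, summed FPKM of Hoxd8 to Hoxd11 against the summed FPKM of 18 stroma markers in each of the 9 libraries. Right, summed FPKM of the 8 Hoxb genes against that of 18 luminal epithelium markers. The left points climb together from Wnt7acre to ePRBoe, while the right points span 142.2 to 242.7 FPKM with the 6 overexpressing libraries at 142.2 to 167.6.

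Hoxd3 and Hoxd4, at the 3′ end of the same cluster, were near the floor. Hoxd4 measured 0.149, 0.416 and 0.802 FPKM in Wnt7acre, 0.327, 1.16 and 0.802 in ePRAoe and 1.28, 1.396 and 1.604 in ePRBoe, and every ePRBoe library was above every other library. It was not called (adjusted p = 0.337 and 0.262). Hoxd3 was not tested, with values from 0.131 to 1.1 FPKM over the 9 libraries. Exons of Hoxd3 and Hoxd4 overlap each other and antisense genes, so their reads cannot be told apart.

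The Hoxb genes were the main Hox genes of this epithelium and none of the 8 was called. Together they summed to 163.7, 242.7 and 199.9 FPKM in Wnt7acre, 145.3, 150.9 and 143.3 in ePRAoe and 167.6, 142.2 and 165.7 in ePRBoe. The ePRAoe libraries were all below Wnt7acre, and the ePRBoe libraries overlapped Wnt7acre replicate 1. All 8 had a negative log2 difference in ePRAoe (median -0.42, 5 of 8 at an unadjusted p under 0.05, beside 31.9% of all tested genes), also under each scaling, and 7 of 8 in ePRBoe (median -0.34), or 8 of 8 with median-of-ratios scaling. In ePRBoe 0 of the 8 had an unadjusted limma p under 0.05, beside 25.8% of all tested genes. One of the 8 turned positive in ePRAoe when Wnt7acre replicate 3 or ePRAoe replicate 2 was left out.
Hoxb6 was the highest, at 55.2, 91.2 and 69.6 FPKM in Wnt7acre, 40.6, 50.6 and 50.04 in ePRAoe and 57.03, 39.5 and 57.96 in ePRBoe. The ePRAoe libraries lay below every Wnt7acre library, with a difference of -0.58 ± 0.18 (SE, adjusted p = 0.0678), and ePRBoe overlapped Wnt7acre, with -0.51 ± 0.22 (SE, adjusted p = 0.197). Hoxb7 measured 36.4, 47.2 and 44.5 FPKM in Wnt7acre, 36.02, 35.4 and 26.2 in ePRAoe and 36.8, 36.2 and 32.3 in ePRBoe. Its highest ePRAoe library lay just below its lowest Wnt7acre library, and the adjusted p was 0.156 in ePRAoe and 0.304 in ePRBoe. Hoxb5 measured 20.5, 32.1 and 23.5 FPKM in Wnt7acre, 14.6, 19.1 and 20.1 in ePRAoe and 23, 15.9 and 14.99 in ePRBoe, where only the ePRAoe libraries were apart from Wnt7acre (adjusted p = 0.122). Hoxb8 and Hoxb3 overlapped between all groups. Hoxb8 measured 16.5, 24.8 and 26.7 FPKM in Wnt7acre, 22.8, 16.9 and 18.4 in ePRAoe and 22.6, 22.4 and 28.3 in ePRBoe (adjusted p = 0.573 and 0.87). Hoxb3 measured 10.8, 18.5 and 14.7 FPKM in Wnt7acre, 12.2, 11.4 and 10.7 in ePRAoe and 14.1, 11.5 and 12.6 in ePRBoe (adjusted p = 0.306 and 0.673). Hoxb4 and Hoxb2 had group means between 7.17 and 12.1 FPKM, and Hoxb9, at the posterior end, between 0.9203 and 2.11. Against the Hoxb sum, Hoxd8 to Hoxd11 came to a ratio between 0.0377 and 0.0611 for Wnt7acre, between 0.124 and 0.268 for ePRAoe and between 0.253 and 0.292 for ePRBoe.

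**Figure D4:**
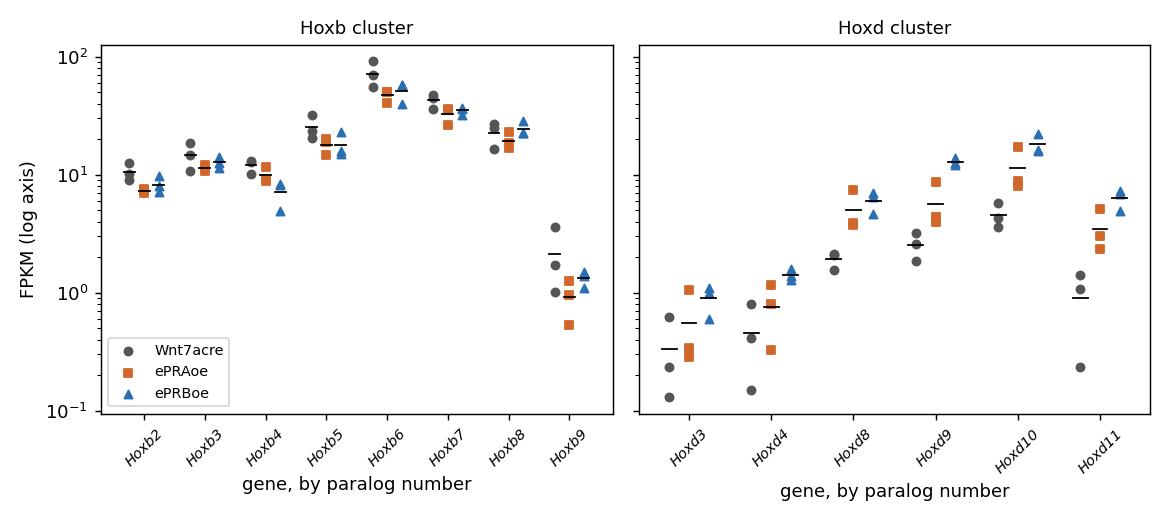
FPKM on a log axis of the 8 Hoxb genes (left) and 6 Hoxd genes (right), by paralog number, with 1 point per library and a bar at the mean of each genotype. Hoxb2 to Hoxb8 stand between 4.95 and 91.2 FPKM with overlapping or nearby genotypes, while Hoxd8 to Hoxd11 step up from Wnt7acre to ePRBoe.

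Of the members in the Hoxa and Hoxc clusters, which leave out Hoxa10 and Hoxa11, only Hoxa9 passed the filter. It measured 0.212, 0.659 and 1.04 FPKM in Wnt7acre, 1.29, 0.541 and 1.77 in ePRAoe and 2.12, 3.18 and 1.88 in ePRBoe, with every ePRBoe library above all others, and differed by 1.13 ± 0.36 (SE, adjusted p = 0.0969) in ePRBoe, which was not called. The values lay on steps of 1 read, and stood for 9, 28 and 44 reads in Wnt7acre, 55, 23 and 75 in ePRAoe and 90, 135 and 80 in ePRBoe. Hoxa3, Hoxa5, Hoxa7, Hoxc6 and Hoxc10 were all highest in ePRBoe replicate 2, at 0.867, 1.09, 0.74, 1.24 and 1.55 FPKM. Of the 28 untested members 9 were highest in that library, a count not set beside that of all untested genes. Its 8 smooth muscle markers summed to 124.7 FPKM against 40.9 and 38.4 in the other 2 ePRBoe libraries and 11.7 to 31.6 in the other groups. Of those 8, 1 of 4 tested rose in ePRBoe, and Myh11, Cnn1, Actg2 and Lmod1 were at 0 in some libraries. Their part in the low Hox values was not tested.

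Of the HOX cofactors, Pbx2, which encodes a homeodomain partner of HOX proteins, rose in ePRBoe, and neither its difference in ePRAoe nor that between ePRBoe and ePRAoe was called. It measured 11.9, 8.38 and 9.47 FPKM in Wnt7acre replicates 1, 2 and 3, 13.4, 10.3 and 10.2 in ePRAoe and 15.5, 14.9 and 15.9 in ePRBoe. The ePRBoe libraries were above all others, and ePRAoe overlapped Wnt7acre. The difference was 0.17 ± 0.12 (SE, adjusted p = 0.374) in ePRAoe, 0.68 ± 0.15 (SE, adjusted p = 0.0316) in ePRBoe and 0.51 ± 0.15 (SE, adjusted p = 0.149) between ePRBoe and ePRAoe. It lost its ePRBoe call when Wnt7acre replicate 3, ePRAoe replicate 2 or any 1 ePRBoe library was left out (adjusted p up to 0.151), and with median-of-ratios scaling (0.0651), quantile normalization (0.0526) or TPM (0.0548). Pbx2 also shares exonic sequence with Gpsm3 on the same strand, which measured 0.906, 1.64 and 1.302 FPKM in Wnt7acre, 0.566, 0.34 and 0.849 in ePRAoe and 2.55, 2.04 and 1.42 in ePRBoe.
Meis1, of the MEIS family of cofactors, measured 23.8, 21.7 and 24 FPKM in Wnt7acre, 23.6, 16.4 and 14.8 in ePRAoe and 15.5, 21.1 and 16.6 in ePRBoe, where ePRBoe lay below Wnt7acre without a call (adjusted p = 0.343). Meis3, at 2.4 ± 0.898 FPKM in Wnt7acre, 3.31 ± 0.769 in ePRAoe and 5.41 ± 0.9895 in ePRBoe, was above Wnt7acre in every ePRBoe library, with a difference of 1.05 ± 0.30 (SE, adjusted p = 0.0725). Meis2 and Pbx3 were not called, and Pbx4 was not tested.

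Of the factors that mark Müllerian epithelium, Dlx5 and Pax8 were the most abundant members, and none of the factors below was called. Dlx5, a distal-less homeobox gene needed for uterine glands to form, measured 129, 123 and 116 FPKM in Wnt7acre replicates 1, 2 and 3, 187, 277 and 176 in ePRAoe and 174, 114 and 176 in ePRBoe. The ePRAoe libraries were all above Wnt7acre, and ePRBoe replicate 2 was the lowest of the 9. The difference was 0.77 ± 0.23 (SE, adjusted p = 0.0592) in ePRAoe and 0.14 ± 0.28 (SE, adjusted p = 0.794) in ePRBoe. Dlx6, its neighbour, measured 20.1, 14.2 and 12.6 FPKM in Wnt7acre, 32.8, 27.3 and 20.02 in ePRAoe and 28.2, 16.3 and 30.02 in ePRBoe, and differed by 0.73 ± 0.24 (SE, adjusted p = 0.0759) and 0.72 ± 0.29 (SE, adjusted p = 0.172) with overlap in both comparisons. Dlx6 overlaps an antisense gene, and the strand setting of the counting is not given in the sources used here.
Pax8, which keeps Müllerian epithelium in its state, measured 143, 119 and 144 FPKM in Wnt7acre, 110.2, 156 and 196 in ePRAoe and 143, 116 and 152 in ePRBoe. All groups overlapped (adjusted p = 0.676 and 0.907). Pax2, the related gene of the duct, measured 51.2, 54.01 and 58.5 FPKM in Wnt7acre, 83.9, 54.6 and 52.3 in ePRAoe and 73, 68.7 and 64.5 in ePRBoe, with ePRBoe above every Wnt7acre library and no call (adjusted p = 0.328). Emx2, which is needed for the reproductive tract to form, measured 12.5, 12.5 and 17.03 FPKM in Wnt7acre, 21.2, 25.5 and 14.9 in ePRAoe and 14.01, 19.7 and 15.3 in ePRBoe. It differed by 0.50 ± 0.17 (SE, adjusted p = 0.0801) in ePRAoe and -0.09 ± 0.20 (SE, adjusted p = 0.815) in ePRBoe. Msx2, the muscle-segment homeobox gene left after Msx1 was set apart, measured 2.496, 1.12 and 5.56 FPKM in Wnt7acre, 2.78, 0.563 and 1.12 in ePRAoe and 1.26, 6.68 and 2.07 in ePRBoe, spread over a wide range in each genotype. Its 2 highest libraries were ePRBoe replicate 2 and Wnt7acre replicate 3, and it was not called (adjusted p = 0.462 and 0.951).

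Among the sine oculis genes, Six5 rose in both genotypes. SIX5 is a homeodomain factor whose gene lies next to Dmpk. Six5 (chr7:19094594-19098549, plus strand) measured 5.36, 4.71 and 5.94 FPKM in Wnt7acre replicates 1, 2 and 3, 9.996, 19 and 14.2 in ePRAoe and 13.4, 16.8 and 15.9 in ePRBoe. Every overexpressing library was above every Wnt7acre library, and ePRAoe and ePRBoe overlapped. The difference was 1.24 ± 0.18 (SE, adjusted p = 0.00542) in ePRAoe and 1.09 ± 0.22 (SE, adjusted p = 0.0263) in ePRBoe. The ePRAoe call was kept in all 9 fits that left out 1 library, which either take a run out of this difference or leave its estimate unchanged. In ePRBoe Six5 was no longer called with Wnt7acre replicate 3, ePRAoe replicate 2, ePRBoe replicate 2 or ePRBoe replicate 3 left out (adjusted p up to 0.246). Six5 came to 4.25%, 3.16% and 3.74% of the stroma marker sum in Wnt7acre, 3.39%, 6.01% and 2.77% in ePRAoe and 2.46%, 2.65% and 2.21% in ePRBoe, where all 3 values were below those of Wnt7acre. Six4 measured 8.54, 9.76 and 8.801 FPKM in Wnt7acre, 6.299, 5.92 and 7.01 in ePRAoe and 6.13, 4.67 and 5.63 in ePRBoe, below Wnt7acre in all 6 overexpressing libraries, with differences of -0.44 ± 0.15 (SE, adjusted p = 0.0864) and -0.57 ± 0.18 (SE, adjusted p = 0.097) that were not called.

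Foxo1 and Foxp1 fell in both overexpressing genotypes, and no other member fell in the fit on all 9 libraries. With Wnt7acre replicate 1 or ePRAoe replicate 1 left out, Foxp4, Foxk1, Foxj2 and Hoxb7 were also called lower in ePRAoe. Six4 was called lower in ePRBoe with median-of-ratios scaling, no run term or a replicate block, and Hoxb9 in ePRAoe with no variance trend. Foxo1 (chr3:52268336-52353221, plus strand) measured 74.5, 121 and 86.8 FPKM in Wnt7acre replicates 1, 2 and 3, 29.1, 29.3 and 50.5 in ePRAoe and 47.3, 35.9 and 38.98 in ePRBoe. All 6 overexpressing libraries were below every Wnt7acre library, and ePRAoe and ePRBoe overlapped. The group means were 94.02 ± 24.03 FPKM in Wnt7acre, 36.3 ± 12.3 in ePRAoe and 40.7 ± 5.89 in ePRBoe (SD, n = 3). The log2 difference was -1.37 ± 0.14 (SE, adjusted p = 0.00219) in ePRAoe and -0.999 ± 0.17 (SE, adjusted p = 0.016) in ePRBoe. Within runs NOVA0134, NS50967 and NS50999 the ePRAoe difference was -1.53, -1.24 and -1.32. In NOVA0134 the log2 difference of the 3 ePRBoe libraries from Wnt7acre replicate 3 was -1.08. The ePRAoe call was kept in all 9 fits that left out 1 library, while in ePRBoe Foxo1 lost its call with Wnt7acre replicate 3, ePRBoe replicate 2 or ePRBoe replicate 3 left out (adjusted p up to 0.165).
Set against the sum of 18 luminal markers, Foxo1 came to 2.65%, 4.24% and 3.38% in Wnt7acre, 1.11%, 1.08% and 2.59% in ePRAoe and 1.78%, 1.51% and 1.48% in ePRBoe. All 6 overexpressing values were below those of Wnt7acre, with ePRAoe replicate 3 the nearest. That sum includes Spint1, which fell by 1.30 and 1.22 on the log2 scale in the 2 genotypes.
Foxp1, which encodes a forkhead repressor expressed in many epithelia, measured 19.3, 36.6 and 27.7 FPKM in Wnt7acre replicates 1, 2 and 3, 10.5, 10.7 and 15 in ePRAoe and 13.3, 12.5 and 15.3 in ePRBoe (chr6:98925338-99522721, minus strand). As with Foxo1, every overexpressing library was below every Wnt7acre library, and Wnt7acre replicate 2 was the highest of all. Against the luminal marker sum Foxp1 came to 0.687%, 1.29% and 1.08% in Wnt7acre, 0.398%, 0.395% and 0.77% in ePRAoe and 0.501%, 0.526% and 0.581% in ePRBoe, so that ePRAoe replicate 3 overlapped Wnt7acre. The difference was -1.12 ± 0.15 (SE, adjusted p = 0.00434) in ePRAoe and -0.88 ± 0.18 (SE, adjusted p = 0.0265) in ePRBoe. The ePRAoe call was kept in all 9 fits, while the one in ePRBoe was lost with Wnt7acre replicate 3, ePRAoe replicate 2 or any 1 ePRBoe library left out (adjusted p up to 0.232). Exons of Foxo1 overlap an annotated gene on the other strand and those of Foxp1 overlap 2 on the same strand.

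**Figure D5:**
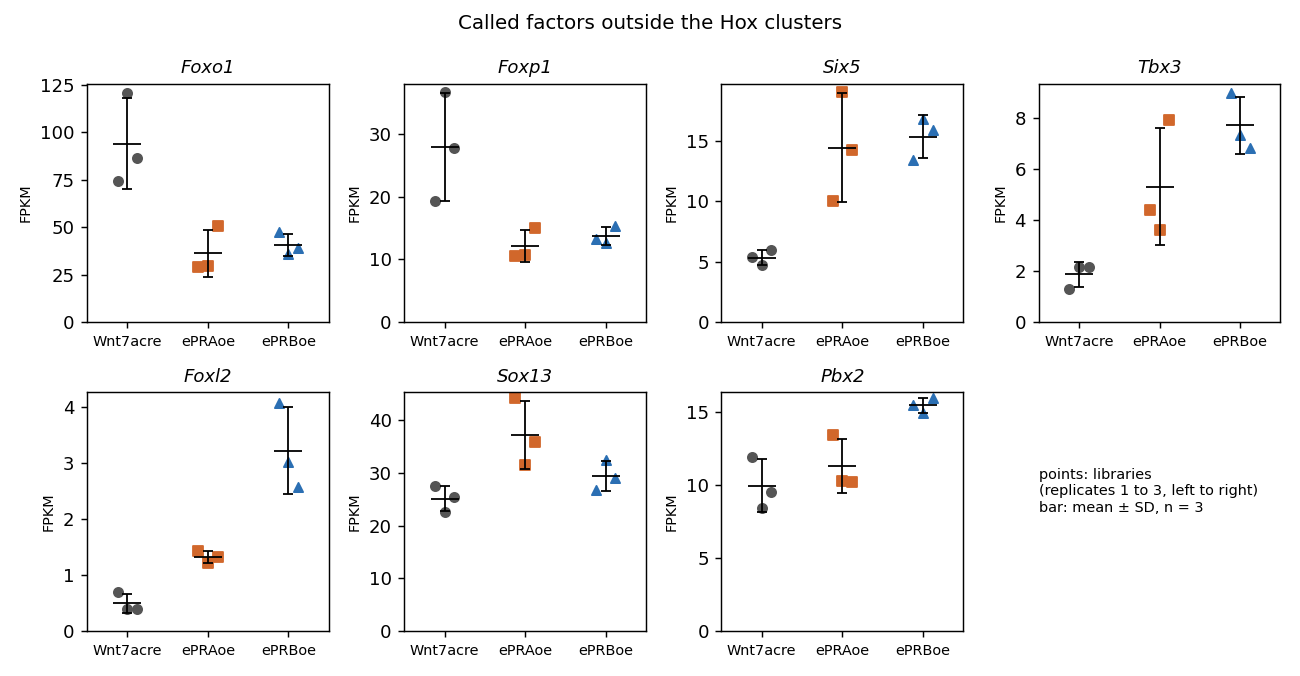
FPKM of the 7 called factors outside the Hox clusters, with 1 point per library (replicates 1 to 3 from left to right) and the mean ± SD of each genotype (n = 3). Foxo1 and Foxp1 are lower in all 6 overexpressing libraries, Six5, Tbx3 and Foxl2 are higher in all 6, Sox13 is higher in ePRAoe, and Pbx2 is higher in ePRBoe.

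Of 18 genes listed as FOXO targets 16 were tested. In ePRAoe 1 rose and 4 fell, and in ePRBoe 1 rose and 1 fell, with medians of -0.41 and -0.06 beside -0.03 and 0.10 over all tested genes. The share called over all tested genes was 16.2% in ePRAoe and 8.89% in ePRBoe. Depp1, which is induced by FOXO factors on fasting and by progesterone, measured 197, 495 and 297 FPKM in Wnt7acre, 0, 2.02 and 21.1 in ePRAoe and 21.8, 3.87 and 22.9 in ePRBoe. All 6 overexpressing libraries were far below Wnt7acre, and ePRAoe replicate 1 was listed at 0. The difference was -6.25 ± 0.73 (SE, adjusted p = 0.00304) in ePRAoe and -4.24 ± 0.89 (SE, adjusted p = 0.0293) in ePRBoe. Bcl2l11, which encodes the cell death protein BIM, measured 6.29, 11.5 and 8.07 FPKM in Wnt7acre, 3.29, 1.46 and 3.64 in ePRAoe and 5.53, 2.95 and 5.36 in ePRBoe, and fell by 1.36 on the log2 scale in ePRAoe (adjusted p = 0.0167). Sesn1, a stress-induced gene, rose in both, from 5.02 ± 1.86 FPKM to 11.6 ± 1.196 and 19.2 ± 1.796 (SD, n = 3). The list as a whole thus had called members in both directions. The number that fell in ePRAoe was 1 with Wnt7acre replicate 2 or 3 or ePRAoe replicate 2 or 3 left out, Bcl2l11 among the calls lost, and 2 with ePRBoe replicate 1 left out, with no run term or with a replicate block. In ePRBoe the call of Depp1 was lost with Wnt7acre replicate 3 or ePRAoe replicate 2 left out (adjusted p up to 0.232), with a pseudocount of 0.1 and with TPM, and the median of the list was 0.09 with that Wnt7acre library left out.

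Foxl2, a forkhead gene of granulosa cells that is also expressed in uterine stroma and muscle, rose in ePRBoe. It measured 0.694, 0.392 and 0.392 FPKM in Wnt7acre replicates 1, 2 and 3, 1.42, 1.21 and 1.33 in ePRAoe and 4.07, 3.02 and 2.56 in ePRBoe (chr9:98955288-98958543, plus strand). These values stood for 23, 13 and 13 reads in Wnt7acre, 47, 40 and 44 in ePRAoe and 135, 100 and 85 in ePRBoe, with no overlap between any 2 groups. The difference was 0.64 ± 0.20 (SE, adjusted p = 0.0666) in ePRAoe and 1.57 ± 0.24 (SE, adjusted p = 0.0114) in ePRBoe. Between ePRBoe and ePRAoe it was 0.93 ± 0.24 (SE, adjusted p = 0.126). With Wnt7acre replicate 3 left out, Foxl2 was not called in ePRBoe (adjusted p = 0.108). Foxl2 came to 0.246% to 0.748% of the stroma marker sum over the 9 libraries, and the groups overlapped in that share. The part of stromal RNA was not tested. The antisense gene Foxl2os overlaps its exons and measured 0.53, 0.468 and 0.469 FPKM in Wnt7acre, 1.04, 0.774 and 0.815 in ePRAoe and 2.69, 2.08 and 2.63 in ePRBoe, so reads of the pair cannot be told apart.

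The other forkhead genes were not called, in either direction. Foxn3, also known as checkpoint suppressor, measured 31.4, 37.6 and 33.8 FPKM in Wnt7acre, 28.95, 28.04 and 30.8 in ePRAoe and 27.3, 29.03 and 27.6 in ePRBoe, with log2 differences of -0.22 and -0.24 (adjusted p = 0.226 and 0.315). Foxj3 measured 17.9, 18.2 and 19.7 FPKM in Wnt7acre, 13.5, 15.5 and 15.04 in ePRAoe and 15.8, 14.99 and 15.1 in ePRBoe, also without overlap with Wnt7acre (adjusted p = 0.0978 and 0.175). Foxk1, which regulates glucose use, measured 18.2, 28.96 and 21.98 FPKM in Wnt7acre, 17.5, 9.15 and 14.6 in ePRAoe and 17.6, 13.7 and 14.8 in ePRBoe, and differed by -0.72 ± 0.22 (SE, adjusted p = 0.0632) in ePRAoe and -0.27 ± 0.27 (SE, adjusted p = 0.58) in ePRBoe. For these 3 genes all 6 overexpressing libraries were below Wnt7acre, a count not set beside that of all tested genes, and no difference was called.
Foxo3, the second FOXO gene in level, measured 17.6, 16.02 and 23.6 FPKM in Wnt7acre, 25.5, 21.7 and 22.9 in ePRAoe and 25.1, 27.8 and 26.4 in ePRBoe, with differences of 0.30 ± 0.15 (SE, adjusted p = 0.233) and 0.36 ± 0.19 (SE, adjusted p = 0.275). Foxj2 measured 14.5, 18.4 and 16.7 FPKM in Wnt7acre, 17.7, 8.19 and 12.03 in ePRAoe and 16.8, 16.5 and 13.2 in ePRBoe, with ePRAoe replicate 2 the lowest (adjusted p = 0.254 and 0.772). Foxk2 measured 12.5, 16.4 and 15.4 FPKM in Wnt7acre, 15.3, 13.1 and 15.04 in ePRAoe and 14.3, 12.97 and 13.5 in ePRBoe, with differences of -0.02 and -0.07. Foxn2, Foxo4, Foxp4 and Foxq1 had group means from 0.0993 to 13.6 FPKM and were not called.
Foxm1, which drives genes of mitosis, measured 0.923, 1.46 and 1.22 FPKM in Wnt7acre, 1.27, 0.923 and 2.02 in ePRAoe and 3.31, 1.95 and 2.26 in ePRBoe. The ePRBoe libraries were all above Wnt7acre, with a difference of 0.80 ± 0.26 (SE, adjusted p = 0.106), which was not called. Of 15 tested FOXM1 targets 5 rose in ePRBoe and 1 in ePRAoe, with medians of 1.20 and -0.01. Among all tested genes 6.41% rose in ePRBoe and 7.2% in ePRAoe, with medians of 0.10 and -0.03. Aurka, a mitotic kinase, rose from 1.86 ± 0.464 FPKM in Wnt7acre to 3.37 ± 0.159 in ePRBoe (SD, n = 3), and Plk1 and Birc5 rose by 1.38 and 1.20 on the log2 scale. Each of these 3 calls was lost in at least 6 of the 9 fits that left out 1 library. The count in ePRBoe was 0 without Wnt7acre replicate 3, ePRAoe replicate 2, ePRBoe replicate 1 or ePRBoe replicate 3, and 0 with quantile normalization. Without Wnt7acre replicate 2 it was 1, without ePRAoe replicate 3 or ePRBoe replicate 2 it was 2, and with no run term it was 2. The call in ePRAoe, that of Top2a (adjusted p = 0.0422), was lost with Wnt7acre replicate 2 or 3, ePRAoe replicate 2 or 3 or ePRBoe replicate 1 left out, with no run term, with a replicate block and with no filter. In the same libraries the sum of 12 immune cell markers was between 337.2 and 401 FPKM in ePRBoe, against 155 and 258.3 in Wnt7acre and 99.7 and 136.1 in ePRAoe, with 5 of 12 higher in ePRBoe and 4 of 12 lower in ePRAoe, and none at 0. The part of these cells in the mitotic genes was not tested.
Of the 8 forkhead members too low to test, Foxi3 reached 2.02 FPKM in ePRBoe replicate 1. Its values stood for 0, 1 and 1 reads in Wnt7acre, 13, 3 and 2 in ePRAoe and 32, 10 and 1 in ePRBoe. Foxj1, the factor of ciliated cells, stood for 1, 0 and 1 reads in Wnt7acre, 1, 12 and 1 in ePRAoe and 23, 2 and 8 in ePRBoe. At this depth neither gave a difference that could be tested.

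Of the SOX members, which leave out Sox17, Sox13 rose in ePRAoe and no other was called. Sox13, a SOXD factor, measured 27.4, 22.6 and 25.4 FPKM in Wnt7acre replicates 1, 2 and 3, 44.2, 31.6 and 35.9 in ePRAoe and 26.7, 32.5 and 29.1 in ePRBoe (chr1:133382303-133424377, minus strand). The ePRAoe libraries were above every Wnt7acre library, and ePRBoe overlapped both. The difference was 0.54 ± 0.14 (SE, adjusted p = 0.0348) in ePRAoe and 0.32 ± 0.17 (SE, adjusted p = 0.277) in ePRBoe. The call was lost in each of the 9 fits that left out 1 library (adjusted p 0.0584 to 0.131), with no run term (0.0508) and with a replicate block (0.0825).
Sox5, of the same SOXD group, measured 23.1, 4.37 and 15.01 FPKM in Wnt7acre, 26.6, 25.98 and 25.9 in ePRAoe and 24.01, 22.04 and 25.9 in ePRBoe. The overexpressing libraries lay in a narrow band, while Wnt7acre ranged widely, with replicate 2 lowest. The difference was 1.09 ± 0.35 (SE, adjusted p = 0.0717) and 0.81 ± 0.43 (SE, adjusted p = 0.283). Sox7, a SOXF factor like the set-apart Sox17, measured 49.6, 17.5 and 25.9 FPKM in Wnt7acre, 53.1, 17.3 and 24.98 in ePRAoe and 27.3, 21.4 and 10.8 in ePRBoe. Replicate 1 of Wnt7acre and of ePRAoe, both from run NS50999, were the highest, and the difference was 0.01 and -0.18 (adjusted p = 0.987 and 0.827).
Sox18, the SOXF factor of endothelium, measured 0.563, 0.282 and 2.21 FPKM in Wnt7acre, 1.74, 1.17 and 3.29 in ePRAoe and 3.61, 8.26 and 5.35 in ePRBoe, with ePRBoe above all others, and differed by 1.63 ± 0.53 (SE, adjusted p = 0.102) in ePRBoe, which was not called. In these libraries the sum of 12 endothelium markers was between 13.5 and 20.9 FPKM in Wnt7acre, between 15.4 and 33.1 in ePRAoe and between 49.9 and 73 in ePRBoe. Of 7 tested, 2 (Cdh5 and Eng) rose in ePRBoe and 0 in ePRAoe, and Prox1 and Lyve1 were at 0 in some libraries. Both calls were lost with Wnt7acre replicate 3 or ePRAoe replicate 2 left out, and that of Eng also with ePRBoe replicate 1 or 2. Their part in Sox18 was not tested. Sox9 and Sox11 varied widely within genotypes: Sox9 ranged from 0.238 to 5.48 FPKM within Wnt7acre, and Sox11 from 0.531 to 5.802 within ePRAoe. Sox12 measured 0.983 ± 0.415 FPKM in Wnt7acre, 1.497 ± 0.253 in ePRAoe and 2.77 ± 0.4902 in ePRBoe (SD, n = 3), with every ePRBoe library above all others and a difference of 0.93 ± 0.24 (SE, adjusted p = 0.0546) in ePRBoe. Sox4 was not called, with group means of 7.83, 8.64 and 10.6 FPKM. Sox2 was at 0 in each Wnt7acre library and stood for 11, 4 and 6 reads in ePRAoe and 3, 1 and 1 in ePRBoe, too few to test. The remaining SOX members, Sox6, Sox15 and Sox21, were not tested either.

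Tbx3 rose in both genotypes and was the only T-box gene called. It encodes a repressor that acts in limb and mammary development. Tbx3 (chr5:119670669-119684724, plus strand) measured 1.32, 2.18 and 2.15 FPKM in Wnt7acre replicates 1, 2 and 3, 4.42, 3.62 and 7.94 in ePRAoe and 8.99, 7.36 and 6.84 in ePRBoe. Wnt7acre was below all other libraries, and ePRAoe replicate 3 lay within the ePRBoe range. The difference was 1.09 ± 0.21 (SE, adjusted p = 0.0153) in ePRAoe and 1.73 ± 0.26 (SE, adjusted p = 0.0109) in ePRBoe. The ePRBoe call was kept in all 9 fits that left out 1 library, and that of ePRAoe was lost with Wnt7acre replicate 2 or ePRAoe replicate 3 left out (adjusted p up to 0.083). Set against the stroma marker sum, Tbx3 came to 0.953% to 1.65% over the 9 libraries, with overlap of all groups. The part of stromal RNA was not tested, and its reads cannot be told apart from those of the antisense gene Tbx3os1.
Tbx2, its close relative, was not called. It measured 1.15, 0.064 and 3.59 FPKM in Wnt7acre, 0.235, 0 and 0.149 in ePRAoe and 0.405, 4.97 and 0.469 in ePRBoe, which stood for 54, 3 and 168 reads, 11, 0 and 7 reads and 19, 233 and 22 reads. The 2 highest libraries, ePRBoe replicate 2 and Wnt7acre replicate 3, were also the 2 highest for Msx2, and the adjusted p was 0.338 and 0.806. The other 5 T-box genes were not tested. Of these, Tbx21, a factor of natural killer and T cells, had its highest value, 0.745 FPKM, in ePRBoe replicate 3. The sum of 12 natural killer and T cell markers was between 70.4 and 108.3 FPKM in ePRBoe, against 18.5 and 34.9 in Wnt7acre and 25.5 and 45.8 in ePRAoe. Of the 10 such markers tested, 5 rose in ePRBoe and 2 in ePRAoe, and Cd3e and Cd4 were at 0 in some libraries. Their part in Tbx21 was not tested.

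The Gata, Irx and Lhx families were near the floor once Gata2 was set apart. Gata3 measured 0.946, 0.284 and 0.26 FPKM in Wnt7acre, 0.024, 0.189 and 0.544 in ePRAoe and 0.709, 0.331 and 0.922 in ePRBoe, with overlap of all groups. Irx5 was listed at 0.474 FPKM in Wnt7acre replicate 1 and at 0 in the other 8 libraries. Lhx6 measured 0.02, 0.079 and 0.02 FPKM in Wnt7acre, 0.278, 0.06 and 0.139 in ePRAoe and 0.159, 0.278 and 0.238 in ePRBoe, with every ePRBoe library above every Wnt7acre library. Gata4 did not pass 0.29 FPKM in any library.

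Of 27 tested homeobox genes outside the families, 3 rose and 2 fell in ePRAoe and 4 rose and 2 fell in ePRBoe. The medians were 0.14 and 0.35. Of all tested genes 16.2% were called in ePRAoe and 8.89% in ePRBoe, with medians of -0.03 and 0.10. Tgif1, a TALE homeodomain repressor, fell in ePRBoe, from 75.8 ± 18.1 to 30.5 ± 5.71 FPKM (SD, n = 3). Its mean in ePRAoe was 42.7 ± 14.6 FPKM. Pknox2, which like the MEIS proteins is a partner of PBX, rose in ePRAoe from 5.18 ± 3.55 to 21.2 ± 8.98 FPKM, with 1.91 ± 0.26 (SE, adjusted p = 0.00483). Its mean in ePRBoe was close to that, at 19.5 ± 2.09 FPKM. Tshz2, a teashirt gene, rose in ePRBoe from 2.62 ± 0.526 to 12.3 ± 1.31 FPKM, with a mean of 5.31 ± 2.44 in ePRAoe.
Of 20 chromatin regulators that act on Hox loci, 3 rose and 1 fell in ePRAoe, beside 16.2% of all tested genes called. In ePRBoe 0 were called by limma, beside 8.89% of all tested genes. There 2 had an unadjusted p under 0.05 (beside 25.8% of all tested genes). The medians were -0.07 in ePRAoe and 0.07 in ePRBoe. Kdm6a, which removes methyl groups from histone H3 lysine 27, rose in ePRAoe from 36.4 ± 5.66 to 61.9 ± 9.11 FPKM (SD, n = 3), and the Polycomb genes Bmi1 and Cbx7 changed in opposite directions, by 0.62 and -0.78. Of 13 tested corepressors and binding partners 1, Tle2, which encodes a Groucho corepressor, rose in ePRAoe, from 1.32 ± 0.725 to 3.35 ± 1.88 FPKM, and 0 were called in ePRBoe, where 6 had an unadjusted p under 0.05, with medians of 0.15 and 0.73. The calls of Kdm6a, Bmi1, Cbx7 and Tle2 were all lost with Wnt7acre replicate 2 or ePRAoe replicate 3 left out, those of Bmi1 and Cbx7 also with Wnt7acre replicate 3 or ePRAoe replicate 2, and that of Tle2 also with Wnt7acre replicate 1 or ePRAoe replicate 1. Those of Kdm6a, Bmi1 and Tle2 were lost with a replicate block too, and that of Tle2 with no run term. In ePRBoe the means were 47.8 ± 6.13 FPKM for Kdm6a and 3.12 ± 0.498 for Tle2.

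Between ePRBoe and ePRAoe no member was called by limma, against 0.324% of all tested genes, and 10 of 53 members (18.9%) had an unadjusted p under 0.05, as did 18.7% of all tested genes. The smallest adjusted p was that of Hoxd9, 0.106, with a difference of 1.12 ± 0.26 (SE), where all 3 ePRBoe libraries were above all 3 ePRAoe libraries. Foxl2 and Pbx2 followed, with 0.93 ± 0.24 and 0.51 ± 0.15, also without overlap. Foxo1 differed by 0.37 ± 0.17 and Six5 by -0.16 ± 0.22, both with overlap. With 3 libraries a group, 1 member, Foxp4, was called with Wnt7acre replicate 1 or ePRAoe replicate 1 left out, and 0 when any other library was. That no member was called does not show that the isoforms act alike on these factors.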

How the data were processed

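RNA from 9 laser-captured libraries was measured. The authors' deposited table holds FPKM for 15158 gene symbols. Per the submitters' processing notes, STAR 2.5.2b, featureCounts 1.5.0-p1 of Subread, edgeR 3.28.0 and limma 3.42.2 were used with the mouse build mm10. Which annotation, gene lengths and strand setting lie behind the values is not given in the sources used here. Of the symbols 4239 stand out of alphabetical order in the table, among them 20 members and 10 of the 11 called ones.

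No read totals are in the table. For 28 of 44 members checked (at most 10 FPKM, at least 5 libraries above 0) all values were multiples of 1 step of at least 0.02 FPKM, within 0.06 of a step. Values divided by the step are given as reads, which put the depth at a median of 12.4 M reads a library (quartiles 8.64 and 13.2 over members).

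Values were transformed as log2(FPKM + 1). Genes reaching 1 FPKM in 3 or more libraries entered limma 3.58.1 in R 4.3.3, with terms for genotype and sequencing run on all 9 libraries, variances moderated along the trend (4 residual and 3.64 prior degrees of freedom) and two-sided Benjamini-Hochberg adjustment over 12347 genes. The test was checked on simulated data. Per-library values are given for called members, for members with a mean of at least 10 FPKM and, in families with neither, for the highest member; of the listed genes up to 3 called ones are named, and others named were chosen after their values were seen. Positions come from GENCODE M21, in which all 81 members were found, and start regions from RefSeq (GRCm38.p6). The members and gene lists were chosen with earlier results of these data known. Alternatives were other scalings, filters and pseudocounts, no run term, a replicate block and leaving out each library. Exons of 32 members, 7 of the 11 called, overlap another annotated gene. A few genes are not reported here by name.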

Additional observations from a re-analysis of the deposited data

How the results depend on the processing

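Over 18 other settings, no called value changed direction, 74 values of named members lost a call and 17 gained one, and 103 values called in neither fit changed sign. For all genes, ePRAoe had 1998 calls (1113 with a replicate block) and ePRBoe 1098 (1786 with no run term and 653 when genes had to average 5 FPKM or more). For members, ePRBoe had 10 calls (16 with no run term and 6 at that mean). Between ePRBoe and ePRAoe the count of 40 became 7 with no run term, 4 with a replicate block, 19 with no filter, 22 with median-of-ratios factors and 16 with quantile normalization. The share of ePRBoe calls that were higher was 72.1%, against 56.4% with median-of-ratios factors and 56.9% with quantile normalization, and the first of these moved the median of all genes from 0.10 to -0.03.

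Leaving out 1 library gave 723 to 2705 calls for ePRAoe and 3 to 12 among members, 231 to 1604 for ePRBoe and 3 to 10 among members, and 0 to 576 between ePRBoe and ePRAoe with 0 to 1 among members. The lowest counts came without Wnt7acre replicate 3 for all genes in ePRAoe and in ePRBoe. Since each run holds 1 Wnt7acre and 1 ePRAoe library, leaving out either of these takes the whole run out of the ePRAoe difference. The labels' replicate numbers gave no sign of pairing. Same-numbered libraries correlated at -0.23 to 0.171 in their deviations from the group means, and other pairs at -0.307 to 0.315. Deviations from a mean of 3 libraries depend on each other, so this check cannot exclude a pairing. With the number as a replicate block, 7 members were called in ePRAoe, 13 in ePRBoe and 0 between them. The depth limits members under about 1 FPKM, of which few reads were counted.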
